A study of Mus musculus with 12 samples.

Results

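Chromatin regions that carried an ATAC-seq peak in every RFP level of 1 FoxA2 genotype and in no level of the other genotype were examined in mouse embryos. ATAC-seq marks open chromatin by letting a transposase insert sequencing adapters into it. The deposited peaks on chromosomes 1 to 19 of the 6 peak lists were joined into 93083 union regions wherever they overlapped by at least 1 bp. Of these, 218 had a peak in all 3 dHx lists and in no WT list (dHx-only, 0.234% of all union regions), and 333 had a peak in all 3 WT lists and in no dHx list (WT-only, 0.358%). Together the 551 members made up 0.592% of the union regions. Presence in the lists chose the members, so that presence is described without a test.

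The cells came from embryos at embryonic day 7.5 in which both copies of Foxa2 had been fused to tagRFP, a red fluorescent protein, in both genotypes. The dHx allele (FoxA2-deltaHx-tagRFP) also lacks a stretch of 10 residues of an alpha helix, whereas the WT allele (FoxA2-WT-tagRFP) is otherwise intact. Per the labels' protocols, both alleles were made by cassette exchange in embryonic stem cells, and the mice were kept on a mixed background of C57Bl6/J and CD-1. About 10 unsexed embryos, with the extraembryonic part removed, went into a sort, and 2000 to 5000 cells into a library. Cells were sorted as High (RFP above that of heterozygous cells), Middle (up to the heterozygous maximum) or Negative. Each of the 6 groups (dHx High, dHx Middle, dHx Negative, WT High, WT Middle and WT Negative) had 2 samples and 1 deposited list made from pooled reads. No spread between replicates could be computed, the 3 RFP levels of a genotype are different cells and not replicates of it, and no difference between genotypes was tested.

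FoxA2 belongs to the forkhead family of transcription factors, is needed for the node, the notochord and the definitive endoderm, and can bind its sites even in closed chromatin. An ATAC-seq peak can lie at a promoter, where transcription starts, or at a distal element. Promoters rich in CpG dinucleotides are open in most cell types, while distal peaks differ more between cell types.

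Promoters under members in both directions are shown first, because the directions differed in how often they lay at a transcription start. Each sequence is the RefSeq window (GRCm38.p6) of 300 bases, 250 before and 50 after the start of transcription, written in the direction of transcription. The 6 windows with CpG in capitals were chosen after their values were seen. For dHx-only regions they are Arhgap20 (chr9:51765101-51765400, plus strand), Parvb (the adhesion protein beta-parvin, chr15:84231793-84232092, plus strand) and Plagl1 (an imprinted zinc finger factor, chr10:13090582-13090881, plus strand). For WT-only regions they are Gstm6 (a glutathione S-transferase, chr3:107943685-107943984, minus strand), Notch3 (a Notch receptor, chr17:32166841-32167140, minus strand) and Lhx2 (a LIM homeobox factor, chr2:38339031-38339330, plus strand). In the window of Oas1g (an oligoadenylate synthetase of the antiviral response, chr5:120887564-120887863, minus strand) the capitals mark the forkhead match, the only match among the promoters under members.
Arhgap20: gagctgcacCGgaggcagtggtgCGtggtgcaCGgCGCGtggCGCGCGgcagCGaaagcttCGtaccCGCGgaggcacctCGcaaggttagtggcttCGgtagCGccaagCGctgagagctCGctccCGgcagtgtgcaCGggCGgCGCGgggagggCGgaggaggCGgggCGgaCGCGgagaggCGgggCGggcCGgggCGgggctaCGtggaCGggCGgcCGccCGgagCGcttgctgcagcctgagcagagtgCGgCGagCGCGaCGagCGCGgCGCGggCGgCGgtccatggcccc
Parvb: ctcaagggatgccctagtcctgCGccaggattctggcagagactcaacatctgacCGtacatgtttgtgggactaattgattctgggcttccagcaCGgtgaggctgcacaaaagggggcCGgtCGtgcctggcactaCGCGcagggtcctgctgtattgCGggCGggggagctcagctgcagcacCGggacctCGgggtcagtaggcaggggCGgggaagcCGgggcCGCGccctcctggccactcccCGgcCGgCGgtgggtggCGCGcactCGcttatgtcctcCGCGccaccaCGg
Plagl1: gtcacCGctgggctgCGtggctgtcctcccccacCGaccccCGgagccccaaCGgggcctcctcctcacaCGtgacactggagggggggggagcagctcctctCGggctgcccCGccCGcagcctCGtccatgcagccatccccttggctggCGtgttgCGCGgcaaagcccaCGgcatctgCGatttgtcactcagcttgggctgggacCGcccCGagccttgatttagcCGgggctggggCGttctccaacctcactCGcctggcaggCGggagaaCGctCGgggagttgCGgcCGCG
Gstm6: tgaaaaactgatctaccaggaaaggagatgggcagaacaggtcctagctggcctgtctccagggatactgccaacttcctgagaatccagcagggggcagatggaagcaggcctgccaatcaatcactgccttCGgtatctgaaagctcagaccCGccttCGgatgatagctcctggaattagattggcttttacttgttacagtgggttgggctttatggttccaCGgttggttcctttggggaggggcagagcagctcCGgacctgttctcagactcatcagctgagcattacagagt
Notch3: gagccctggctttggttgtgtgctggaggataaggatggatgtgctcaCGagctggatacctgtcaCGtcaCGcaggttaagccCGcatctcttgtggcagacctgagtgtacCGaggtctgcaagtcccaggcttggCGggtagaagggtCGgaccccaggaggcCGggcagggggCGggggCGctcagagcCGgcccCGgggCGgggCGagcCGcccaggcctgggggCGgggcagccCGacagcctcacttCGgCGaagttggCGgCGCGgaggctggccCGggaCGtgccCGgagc
Lhx2: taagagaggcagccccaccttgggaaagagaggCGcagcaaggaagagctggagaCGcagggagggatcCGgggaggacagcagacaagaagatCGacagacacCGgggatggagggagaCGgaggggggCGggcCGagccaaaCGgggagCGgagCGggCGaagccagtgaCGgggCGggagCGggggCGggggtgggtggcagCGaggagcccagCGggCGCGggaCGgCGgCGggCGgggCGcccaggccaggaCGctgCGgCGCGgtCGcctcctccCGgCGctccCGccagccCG
Oas1g: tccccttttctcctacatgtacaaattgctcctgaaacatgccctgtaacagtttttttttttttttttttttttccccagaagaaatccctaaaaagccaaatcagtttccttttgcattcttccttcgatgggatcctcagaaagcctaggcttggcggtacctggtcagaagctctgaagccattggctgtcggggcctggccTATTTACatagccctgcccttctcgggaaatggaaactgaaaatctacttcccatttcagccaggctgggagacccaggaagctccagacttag

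The Arhgap20 window held 48 CpG, Parvb 24 and Plagl1 26, and the dHx-only regions over them covered 300, 300 and 277 of the 300 bases. The Gstm6 window held 5 CpG, Notch3 25 and Lhx2 34, and the WT-only regions covered 300, 281 and 224 bases. Windows rich and poor in CpG thus both occurred among these examples, the Gstm6 window being the poorest of the 6.

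The dHx-only regions were 1.28% of the 16999 regions with a peak in all 3 dHx lists, and the WT-only regions were 1.85% of the 18007 with a peak in all 3 WT lists. Of the 9405 regions with a peak in exactly 3 lists, 2.32% were dHx-only, 3.54% WT-only, and 8854 mixed the genotypes. A further 865 regions had a peak in all 3 dHx lists and in 1 WT list, and 1507 had one in all 3 WT lists and in 1 dHx list. The list that kept the 865 from being dHx-only was WT High in 348 cases (40.2%), WT Middle in 285 and WT Negative in 232. For the 1507 it was dHx Negative, the longest list, in 1020 cases (67.7%), dHx Middle in 281 and dHx High in 206. Regions in a smaller number of lists of 1 genotype were far more numerous, with 2062 in 2 dHx lists alone and 2436 in 2 WT lists alone.

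**Figure D1:**
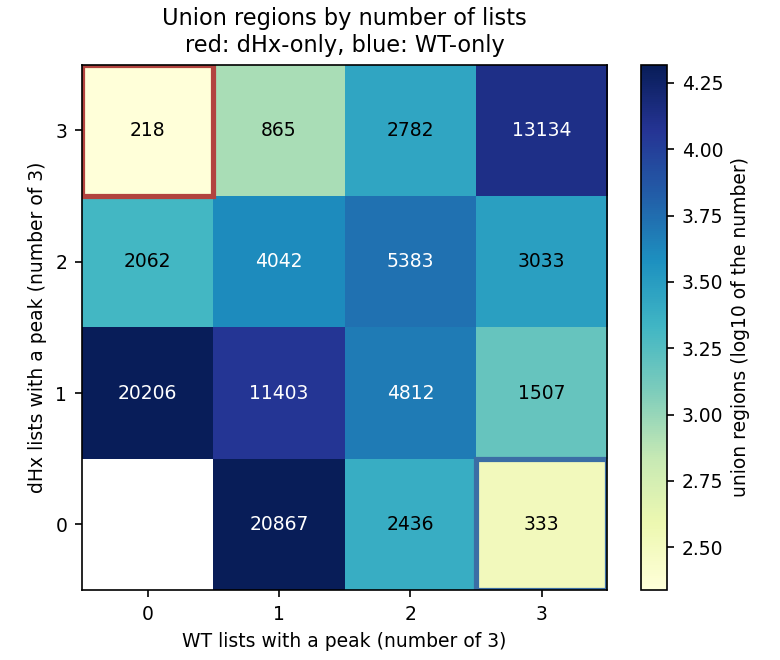
Number of union regions by how many dHx lists (vertical axis, 0 to 3) and how many WT lists (horizontal axis, 0 to 3) held a peak in them, with colour giving log10 of the number. The dHx-only corner, framed in red, holds 218 regions and the WT-only corner, framed in blue, holds 333, against 13134 regions in all 6 lists.

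The lists differed in length, and the length touches every count of absence. On chromosomes 1 to 19 the dHx High list held 36070 peaks, dHx Middle 37611 and dHx Negative 48244, against 44195 in WT High, 44539 in Middle and 38439 in Negative. Read totals per sample were not used here. The lowest peak score, which the authors gave and which is taken to be a −log10 significance, was between 2.24 and 2.64 in the dHx lists and between 2.19 and 2.46 in the WT lists. A region missing from a list had no listed peak there, which does not show that its chromatin was closed. When each list was shortened to its 36070 highest-scoring peaks, 251 regions were dHx-only and 277 WT-only, and these included 150 of the 218 and 197 of the 333.

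Most members ranked low in their lists. Their median width was 620 bp (range 310 to 5488) for dHx-only and 649 bp (240 to 4458) for WT-only regions, against 451 bp for all union regions, 582 bp for the 8854 mixed regions of 3 lists and 1044 bp for regions of all 6 lists. The score of each peak was turned into its percentile within its own list. The median percentile of dHx-only regions was 31.5 in dHx High, 28.4 in Middle and 42.3 in Negative. The median of WT-only regions was 40.6 in WT High, 39.5 in Middle and 39.7 in Negative. Mixed regions of 3 lists had medians of 31.5, 38.8 and 42.3 in the dHx lists and 40.6, 39.5 and 39.7 in the WT lists, so the members' medians equalled those of other regions of 3 lists except in dHx Middle, where they were lower. Regions of all 6 lists had medians between 75.5 and 81.6. Only 13 of the 218 dHx-only regions and 34 of the 333 WT-only regions were above the list median in all 3 lists. Conversely, 91 dHx-only and 103 WT-only regions were above it in none.

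**Figure D2:**
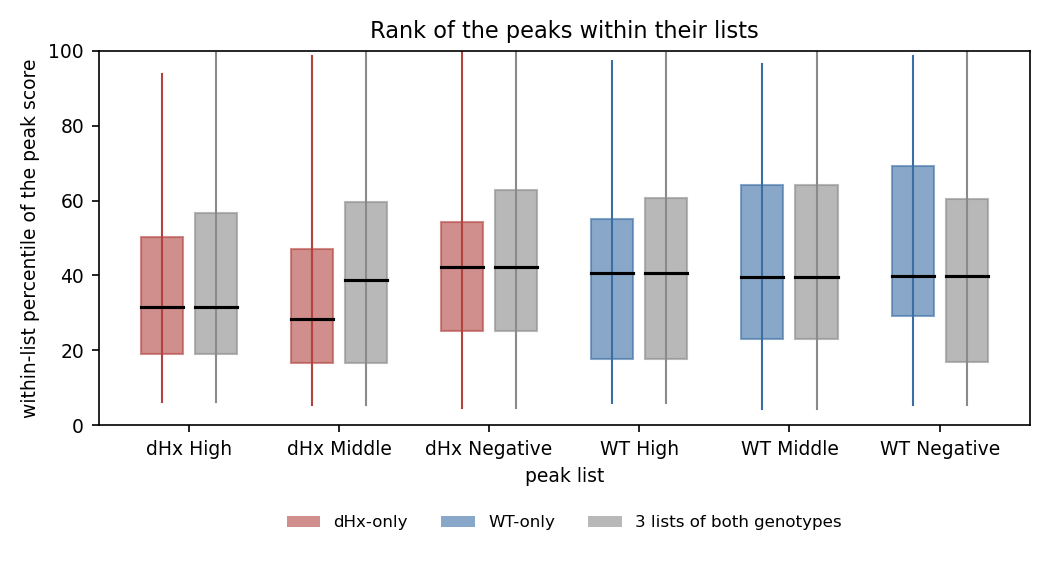
Within-list percentile of the peak score (vertical axis, 0 to 100) in each of the 6 lists, for dHx-only regions (red, n = 218), WT-only regions (blue, n = 333) and mixed regions of 3 lists (grey). Boxes span the quartiles, black lines mark the medians and vertical lines run from the lowest to the highest value. The members' medians lie between 28.4 and 42.3, below the middle of every list.

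The dHx-only region that ranked highest in its weakest list lay inside Wwc1, which encodes the Hippo pathway protein KIBRA (chr11:35943652-35944475). Its authors' scores were 21.7 in dHx High, 40.3 in Middle and 12.3 in Negative, and its lowest percentile was 72.1. Next came regions near Rmdn2, a microtubule regulator (chr17:79550031-79550552, scores 14.1, 8.67 and 16.8 in dHx High, Middle and Negative), and near Aass, a lysine-degrading enzyme (chr6:23163804-23164258, 9.88, 8.67 and 16.8). Regions whose nearest genes were Tuba3b, Zfp882, Osbpl8, Disc1, Cfap300, Ttpal and Tns1 (244 kb away) completed the first 10. Their lowest percentiles were between 50.3 and 59.6. The region over the Arhgap20 promoter tied with that of Tns1 at 50.3. The level with the highest percentile differed among the first 10. A region inside Disc1, a neuronal scaffold protein (chr8:125170719-125171624), scored 8.55 in dHx High, 38.7 in Middle and 159 in Negative, at percentiles of 56.8 in High and 99.6 in Negative. In contrast, a region inside Ttpal (chr2:163602032-163602776) scored 20.1 in dHx High, 7.52 in Middle and 11.2 in Negative, at percentiles of 83.8, 53.9 and 69.4.

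Among WT-only regions the first was inside Prg4, the gene of the joint lubricant lubricin (chr1:150454481-150455875). It scored 38.7 in WT High, 31.2 in Middle and 17.6 in Negative, and its lowest percentile was 84.3. It was followed by a region inside Tbc1d23, a Golgi trafficking protein (chr16:57173064-57173900, scores 40.3, 23.3 and 12.6 in WT High, Middle and Negative), and by a region inside Atg4c, an autophagy protease (chr4:99200806-99201635, 12.9, 31.2 and 31.3). Regions whose nearest genes were Gulp1, Plcxd3, Nmur2 (206 kb away), Dip2a, 4430402I18Rik, Ddx18 (181 kb away) and Slc1a4 completed the first 10. Their lowest percentiles were between 64.2 and 72.8. Regions nearest to Gm12887 and Gm10573 on chromosome 4, equal to each other in width and scores, tied with that of Slc1a4 at 64.2. An uneven example among the first 10 lay 32.5 kb from Slc1a4, a neutral amino acid transporter (chr11:20365190-20365805). It scored 53.4 in WT High, 10.5 in Middle and 9.21 in Negative, at percentiles of 97.4, 64.2 and 65.3. No dHx-only region and 3 WT-only regions were above the 75th percentile in all 3 lists. None of these 20 leading regions lay in a cluster as defined further on.

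At the edge of the rule, some of the weakest dHx-only regions were near Dll4 (a Notch ligand), Tmem239, Emilin3, Elfn1 and Tspan9, each at the lowest score of the dHx Negative list, 2.24. Some of the weakest WT-only regions were near Mrgprb3, Arhgef18, Tgfbr3l, Adgre5 and Vstm5, each at the lowest score of the WT Middle list, 2.35. Weakness here refers to the weakest list alone. The Tmem239 region scored 11.3 in dHx High and 9.86 in Middle, and the Tgfbr3l region 9.29 in WT High, all above their list medians. Just outside the rule, a region 249 kb from Gm7361 (chr5:26513090-26514094) scored 76.6 in dHx High, 109 in Middle and 196 in Negative, but also had a WT High peak of score 8.15. In the other direction, a region 195 kb from Gm46900 (chr5:5944691-5945382) scored 3.70 in dHx High, against 63.7 in WT High, 151 in Middle and 93.9 in Negative. These near misses scored above every member in each of their 3 lists: the highest dHx-only scores were 36.8 in dHx High, 69.6 in Middle and 159 in Negative, and the highest WT-only scores were 53.4 in WT High, 57.2 in Middle and 69.4 in Negative.

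Members were spread over all 19 chromosomes, and in each direction 1 chromosome had the highest share. Chromosome 2 held 37 dHx-only regions (0.461% of its 8026 union regions) and 22 WT-only regions (0.274%). Chromosome 4 held 10 dHx-only regions (0.139% of 7206) and 74 WT-only regions (1.03%). The next highest dHx-only share was 0.399% on chromosome 15 and the next highest WT-only share was 0.446% on chromosome 3. Both high shares lay in bins of 1 Mb crowded with at least 100 union regions. There were 56 such bins among the 2412 with any union region, and they held 10446 union regions (11.2%). Of the regions in crowded bins 30 were dHx-only (0.287%) and 70 WT-only (0.670%). Outside them, chromosome 2 had 18 dHx-only and 22 WT-only regions (0.260% and 0.317%), and chromosome 4 had 9 and 18 (0.171% and 0.342%), against 0.228% dHx-only and 0.318% WT-only over all chromosomes.

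**Figure D3:**
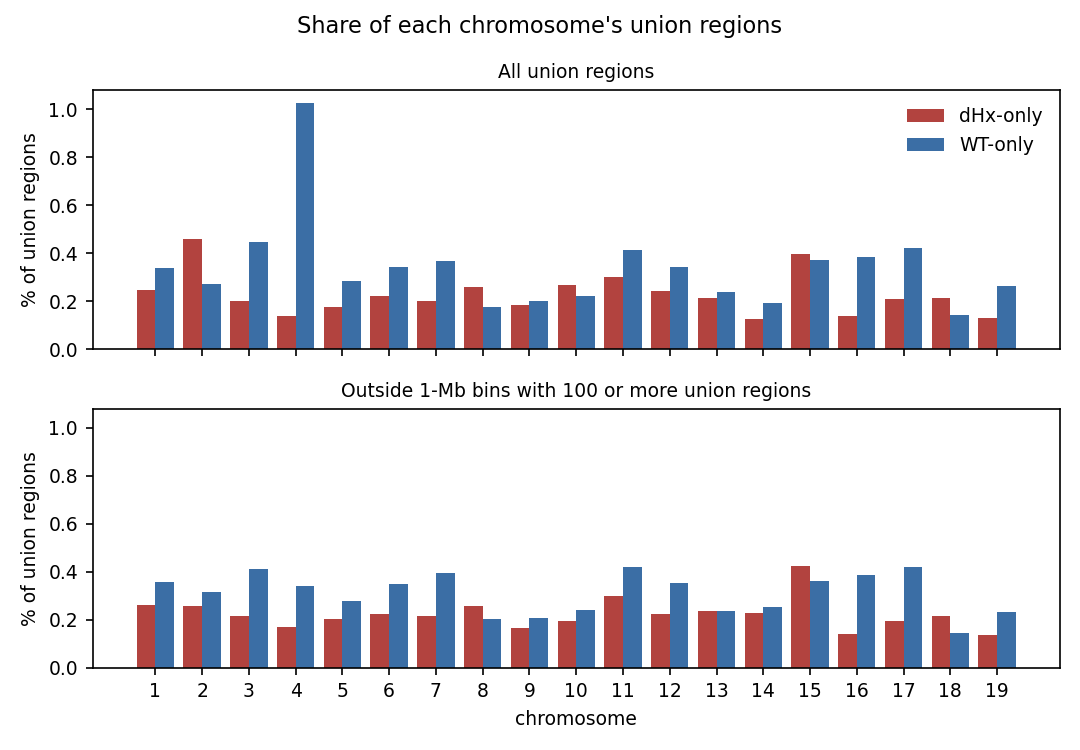
Share of each chromosome's union regions (vertical axis, %) that were dHx-only (red, left of each pair) or WT-only (blue, right), over all regions in the upper panel and outside 1-Mb bins with 100 or more union regions in the lower panel. The WT-only share on chromosome 4 is 1.03% above and 0.342% below, and the dHx-only share on chromosome 2 is 0.461% above and 0.260% below.

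Clusters were defined as 3 or more members of 1 direction, each within 100 kb of the next. By this definition 14 dHx-only regions (6.42%, exact 95% interval 3.56 to 10.5) lay in 2 clusters and 48 WT-only regions (14.4%, 10.8 to 18.7) in 6. All intervals given are exact (Clopper-Pearson) and reflect counting error alone. They count regions as independent, which neighbouring regions may not be, and they test no difference between genotypes. Both dHx-only clusters were on chromosome 2 and all 6 WT-only clusters were on chromosome 4. No cluster contained a member of the other direction. At shares of 0.234% dHx-only and 0.358% WT-only over all union regions, a count of 0 there is near the background. With crowded bins left out, no cluster remained in either direction. The median distance between neighbouring members was 6759 kb for dHx-only and 3629 kb for WT-only regions, and it was 7949 kb and 6467 kb outside crowded bins, where only 5 neighbouring pairs of each direction were within 100 kb.

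The WT-only clusters ran along chromosome 4 between 145679004 and 147658897, through a group of zinc finger genes. Many Zfp genes encode KRAB zinc finger proteins, which bind DNA and repress transposable elements, and they often stand in tandem groups of near-identical copies. The clusters held 6 members of 71 union regions beside Zfp980, 9 of 57 with Zfp987 and Zfp600, 9 of 64 with Zfp992, Zfp981 and Zfp993, 8 of 104 with Zfp993, Rex2, Zfp978 and Zfp991, 10 of 57 with Zfp978, Zfp988 and Zfp982, and 6 of 16 with Zfp979. Zfp978 was the nearest gene of 10 members, Zfp600 of 7, Zfp979 of 6, and Zfp980 and Zfp993 of 5 each. The strongest member of the Zfp600 cluster (chr4:146241988-146243462) scored 29.5 in WT High, 6.52 in Middle and 25.6 in Negative. From 145 to 148 Mb there were 0 dHx-only and 51 WT-only regions. The median width of the 51 was 1051 bp, against 602 bp for the other 282 WT-only regions, and their median percentile was 29.9 in WT High, 39.5 in Middle and 47.9 in Negative.

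The dHx-only clusters ran along the end of chromosome 2. The first (chr2:174967709-175099338) held 4 members of 43 union regions with Gm14444, LOC115489542 and Gm14393, and the second (chr2:177192673-177582912) held 10 of 185 with Gm14410 and Zfp970. The widest dHx-only region of all, 5488 bp long, lay 0.314 kb from Zfp970 (chr2:177479508-177484995) and scored 11.3 in dHx High, 52.0 in Middle and 5.41 in Negative. From 174 to 178 Mb there were 21 dHx-only and 0 WT-only regions. Their median width was 1235 bp, against 593 bp for the other 197 dHx-only regions. In dHx High they were weak, with a median percentile of 6.30 (the lowest score in that list) against 38.8 in dHx Middle and 48.7 in dHx Negative.

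Whole lists leaned the same way in these stretches, except that the High lists on chromosome 2 were close by count. The stretches were picked by their members, which are among the regions counted. Each member adds 1 region to every list of its genotype and 0 to the other lists, so part of the lean follows from the rule. The members counted were 51 WT-only on chromosome 4 (145 to 148 Mb) and 19 dHx-only on chromosome 2 (175 to 178 Mb). Between 145 and 148 Mb of chromosome 4, 736 union regions were counted, of which 59 had a peak in dHx High, 79 in Middle and 167 in Negative, against 220 in WT High, 498 in Middle and 433 in Negative. Between 175 and 178 Mb of chromosome 2, 1095 union regions were counted, of which 193 had a peak in dHx High, 634 in Middle and 905 in Negative, against 182 in WT High, 326 in Middle and 259 in Negative. By count the genotypes were thus close at High on chromosome 2 and apart at the other levels. As a share of each list's regions, that stretch made up 0.547% of dHx High and 0.426% of WT High. With list length counted, dHx was therefore higher at High as well. A crowded stretch on chromosome 14 (3 to 8 Mb, 1724 union regions) had 0 members in either direction. Of its regions 265 had a peak in dHx High, 487 in Middle and 1283 in Negative, against 546 in WT High, 618 in Middle and 521 in Negative, so the order of the genotypes differed between levels. Of the 37 crowded stretches, 16 had no member and 1 had members of both directions. Members were 0.592% of all union regions. In small stretches, such as those of 101 union regions, having no member or 1 direction alone is therefore near the background. These counts thus do not show that crowded stretches in general lean to 1 direction. With lists of equal length, chromosome 2 (174 to 178 Mb) had 37 dHx-only and 0 WT-only regions, and chromosome 4 (145 to 148 Mb) had 0 and 29. The clustered share was then 10.8% for dHx-only and 9.75% for WT-only regions, so the order of the shares depended on list length. With peaks scoring under 5 dropped from every list, the chromosome 2 stretch had 6 dHx-only and the chromosome 4 stretch 17 WT-only regions. With no peak of the other genotype within 1 kb, they had 16 and 48.

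**Figure D4:**
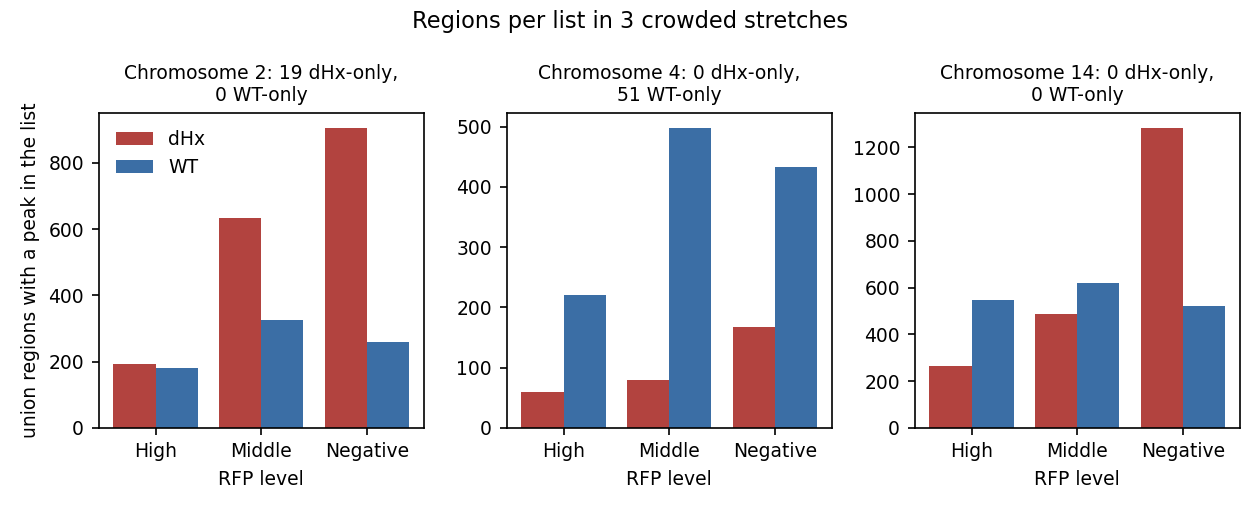
Number of union regions with a peak in each list (vertical axis, each panel with its own scale from 0) at the 3 RFP levels, for dHx (red) and WT (blue), in crowded stretches of chromosomes 2, 4 and 14. On chromosome 4 every WT bar is higher than the dHx bar of its level, on chromosome 2 the dHx bars are higher at Middle and Negative (634 and 905 against 326 and 259), and on chromosome 14 the order changes between levels.

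Some members matched another member exactly in width and in all 3 scores. This held for 4 dHx-only regions in 2 sets and 17 WT-only regions in 8 sets. On chromosome 2, regions of 1536 bp beside Gm4724 (chr2:175486724-175488259) and Zfp973 (chr2:176687261-176688796) both scored 6.02 in dHx High, 41.9 in Middle and 4.55 in Negative. On chromosome 4, regions of 1414 bp beside Rex2, Zfp978 and Zfp979 all scored 3.05 in WT High, 10.5 in Middle and 9.21 in Negative. Other such pairs included those beside Zfp980 and Zfp993, Gm20878 and Gm21953, Tmem254a and Tmem254b on chromosome 14, and Gm6351 and Gm7982 on chromosome 5. Members of such sets may share their reads, so their values are uncertain and they are not separate observations. The part that read placement among copies had in the clusters was not tested. The nearest gene had a Zfp symbol for 9 of 218 dHx-only regions (4.13%) and 49 of 333 WT-only regions (14.7%), against 2.49% of all union regions. Outside crowded bins this held for 3 of 188 dHx-only regions (1.60%) and 3 of 263 WT-only regions (1.14%), against 1.52% of mixed regions of 3 lists. Many genes of the chromosome 2 clusters have Gm symbols instead. A wider pattern took symbols starting Zfp, Gm, Olfr or Vmn or ending Rik, an uncertain guide to copy number. It held for 34 dHx-only (15.6%) and 78 WT-only regions (23.4%), against 12.8% of all union regions. Outside crowded bins it held for 7.45% and 9.13%, against 6.58% of mixed regions of 3 lists.

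The dHx-only regions lay near transcription starts more often than the WT-only regions. Within 1 kb of a start were 39 of 212 dHx-only regions (18.4%, 13.4 to 24.3) and 17 of 329 WT-only regions (5.17%, 3.04 to 8.14). Over all union regions the share was 14.3% (12932 of 90301), which lies inside the dHx-only interval and above the WT-only interval. Only 175 of the 218 dHx-only and 284 of the 333 WT-only regions had no peak of the other genotype within 1 kb. Of these, 23 of 172 dHx-only regions (13.4%) and 9 of 281 WT-only regions (3.20%) lay near a start. The dHx-only share was then below that of all union regions. Starts on chromosome 18 were not used here, and the start table covered 81.7% of the protein-coding genes. Among regions of 2 dHx lists and no WT list the share was 11.5% (10.1 to 13.0), and of 1 dHx list and no WT list 5.63% (5.31 to 5.96). For WT lists alone it was 5.69% (4.78 to 6.70) with 2 lists and 4.74% (4.45 to 5.04) with 1. The share was thus higher with each further dHx list, whereas with WT lists it stayed between 4.74% and 5.69%. Mixed regions of 3 lists had 12.2% (11.2 to 13.3) with 2 dHx lists and 8.12% (7.35 to 8.94) with 2 WT lists. Regions of all 6 lists had 51.3%. Near misses had 24.8% (21.9 to 27.9) with 3 dHx lists and 1 WT list. With 3 WT lists and 1 dHx list they had 8.72% (7.33 to 10.3). The difference between the directions was thus not particular to members.

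**Figure D5:**
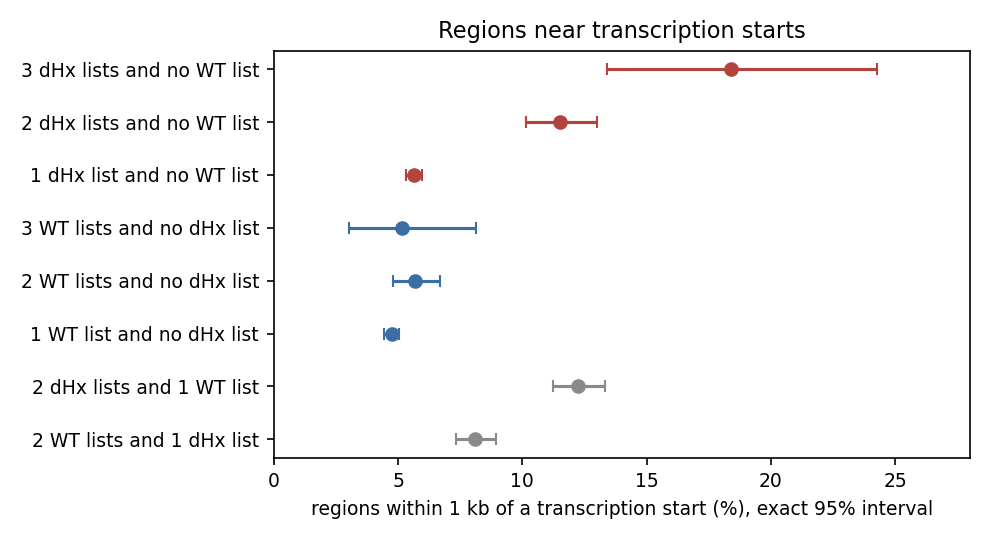
Share of regions within 1 kb of a transcription start (horizontal axis, %) by the lists that held a peak, with dHx lists alone in red, WT lists alone in blue and mixed regions of 3 lists in grey. Points are shares and bars exact 95% intervals for counting error. The intervals of dHx-only (13.4 to 24.3) and WT-only regions (3.04 to 8.14) count regions as independent and test no difference between genotypes.

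The lists themselves did not all differ in this way. Of all regions with a peak in a list, 29.0% lay near a start in dHx High, 25.2% in Middle and 22.3% in Negative, against 23.4% in WT High, 21.7% in Middle and 26.0% in Negative. At Negative the order was therefore opposite to that of the members. With lists of equal length the shares of members were 18.4% for dHx-only and 3.66% for WT-only. Measured to either end of a protein-coding gene, 63 of 218 dHx-only regions (28.9%, 23.0 to 35.4) and 35 of 333 WT-only regions (10.5%, 7.43 to 14.3) were within 1 kb, against 18.2% of all union regions. Inside a protein-coding gene lay 61.0% of dHx-only and 46.5% of WT-only regions, against 54.3% of all union regions. More than 100 kb from any such gene lay 10.6% of dHx-only and 15.3% of WT-only regions, against 11.1% of all, so the dHx-only share was near that of all regions.

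Promoter windows of 38 genes were touched by dHx-only regions and of 16 genes by WT-only regions. Some genes have several starts, so these were 41 and 18 windows of the 31223 in the table. The dHx-only windows had a median GC content of 62.3% and a median of 22 CpG, and the WT-only windows 56.5% and 10 CpG. Windows under regions of all 6 lists had 63.0% and 23 CpG, and all windows 53.0% and 7 CpG. In base composition the dHx-only windows thus stood near the promoters open in every list. The forkhead motif TGTTTAC was searched on both strands together with 3 related forms of the same length. These were TATTTAC in the first place, then TGTTGAC as a further form, and finally TATTGAC as the last of them. A window counted when it held at least 1 of these, overlapping or not. A match was found in 1 of 41 dHx-only windows (2.44%, 0.0617 to 12.9) and 0 of 18 WT-only windows, for which the exact interval reaches 18.5%. Among windows under regions of all 6 lists 5.50% held a match, among windows under no list 13.5%, and among all windows 10.2%. The 1 match was the TATTTAC of Oas1g, in the strand as printed.

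The genes at these promoters had varied roles. The following were chosen after their values were seen. Arhgap20 scored 7.26 in dHx High, 7.52 in Middle and 8.19 in Negative, which was at or above the list median in each, and by lowest percentile (50.3) its region was the strongest dHx-only region over a promoter window. At Plagl1 the scores were 4.83 in dHx High, 3.34 in Middle and 6.30 in Negative, and the same region touched Hymai, the noncoding RNA of this imprinted locus. Genes of chromatin modifiers were among them, namely Kmt2d, a histone H3 lysine methyltransferase (11.3, 4.31 and 2.97 in dHx High, Middle and Negative), and Kdm7a, a histone demethylase (11.3, 11.1 and 3.74). Stat6, the transcription factor of interleukin-4 signalling, and its neighbour Nab2, a corepressor of EGR factors, each had a dHx-only region of their own. Oas1g had scores of 6.02 in dHx High, 2.43 in Middle and 2.97 in Negative.

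On the WT-only side the region over the Gstm6 promoter had the highest lowest percentile (60.6), with scores of 8.15 in WT High, 11.6 in Middle and 15.1 in Negative. Notch3 scored 8.15 in WT High, 6.52 in Middle and 5.09 in Negative. Lhx2 was at the edge of detection, with 3.05 in WT High, 2.35 in Middle and 2.46 in Negative, the last 2 being the lowest scores of their lists. Slc18a3, the vesicular acetylcholine transporter whose gene lies within the Chat locus, scored 3.97 in WT High, 2.35 in Middle and 4.16 in Negative. Hspb1, a small heat shock protein, scored 3.97, 3.10 and 4.16 in WT High, Middle and Negative.

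Genes with several members outside crowded bins were few. On the dHx-only side Fermt2, Parvb, Plxnc1 and St6galnac3 were each nearest to 2 members, and on the WT-only side Cela3a, Cep128 and Zfyve1 were. Fermt2 encodes the integrin activator kindlin-2. The union regions nearest to each of these genes ranged from 5 at Zfyve1 to 37 at St6galnac3, with 7 at Parvb and 13 at Fermt2. The regions of Parvb were 0.423 kb apart, the smallest distance between any dHx-only neighbours. The first (chr15:84230648-84231303) scored 2.64 in dHx High, 7.52 in Middle and 2.97 in Negative, and the second, over the promoter (chr15:84231727-84232869), scored 7.26, 6.40 and 7.23. The closest WT-only neighbours, 0.152 kb apart, were those of Cela3a, a pancreatic elastase (chr4:137384528-137385630 and chr4:137385783-137386814). They scored 8.15 and 7.04 in WT High, 4.73 and 5.61 in WT Middle, and 4.16 and 9.21 in WT Negative. A region of Zfyve1, a FYVE domain protein (chr12:83584748-83585444), scored 5.97 in WT High, 35.3 in Middle and 13.8 in Negative.

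Members near listed genes were few, as they were near genes at large. Of 161 genes in 8 lists, 7 of them for cell types of this stage and 1 of ubiquitously expressed genes, 1 had a dHx-only region and 1 a WT-only region among the 1169 union regions nearest to them (0.0855% each). Over all protein-coding genes the shares were 0.236% dHx-only and 0.341% WT-only, and at such shares counts this small do not set the lists apart. The 30 definitive endoderm genes (335 union regions), 26 node and notochord genes (183), 20 primitive streak and nascent mesoderm genes (128), 20 lateral and cardiac mesoderm genes (176), 18 blood and endothelium genes (109) and 18 ubiquitously expressed genes (76) had 0 in both directions. Among 20 visceral endoderm genes, Lrp2, the endocytic receptor megalin, had a dHx-only region 0.874 kb outside the gene (chr2:69586903-69588410), with scores of 4.83 in dHx High, 2.43 in Middle and 4.55 in Negative. Among 20 epiblast and neuroectoderm genes, Dnmt3b, a de novo DNA methyltransferase, had a WT-only region 5.93 kb outside the gene (chr2:153642590-153643479), with 7.04 in WT High, 3.89 in Middle and 5.09 in Negative. Both included at least 1 weak peak, with lowest percentiles of 5.35 at Lrp2 and 23.0 at Dnmt3b.

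Around Foxa2 itself (chr2:148042877-148046969), which carries the edited allele, there were 120 union regions within 1 Mb and none of them was a member. With members at 0.592% of all union regions, a count of 0 there is near the background. Within 10 Mb there were 1018 union regions, among them 0 dHx-only regions and 1 WT-only region, that of Dnmt3b. The nearest dHx-only region lay 12.9 Mb away inside Emilin3, an extracellular matrix gene (chr2:160911985-160912740), and scored 2.64 in dHx High, 4.31 in Middle and 2.24 in Negative. The dHx-only clusters of chromosome 2 lay farther still from Foxa2 along the chromosome.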

How the data were processed

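ATAC-seq peaks were deposited as 6 lists on mm10, 1 for each genotype and RFP level, and the peak names describe pooled alignments, so each list was taken to combine both samples of its group. The submitters' processing notes name STAR 2.5.2a and MACS2, neither the step each ran nor its settings being given in the sources used here. The unnamed score column of the deposited lists was taken, from its values, to be a −log10 p or q given by the authors' caller. Scores were compared only within a list, by rank or against a minimum. Lines with equal start and end were taken as summits of 1 peak.

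Union regions, percentiles (share of the list below a score, ties counted by their midpoint), clusters and distances were computed with Python 3.11.15, pandas 2.3.3 and scipy 1.17.1, and the steps were tested on simulated lists. Genes, starts and promoter windows came from RefSeq tables of GRCm38.p6, the assembly of mm10. By symbol, 161 of 161 listed genes matched. Starts of chromosome 18 were not used here. No genome sequence was used, so the planned forkhead search within the regions was replaced by one in promoter windows.

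The members and the gene lists were chosen with earlier results of these data known. Named were, per direction, the 10 members with the highest lowest percentile, the largest clusters with their genes, members nearest to listed genes, the 5 weakest members, near misses, and Foxa2 with its nearest members. Other named genes were chosen after their values were seen. There was no test, since each group had 1 list. Alternatives changed the joining of peaks, list length, score minimum, distance and levels used. No deposited column of per-sample values was left out.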

Additional observations from a re-analysis of the deposited data

How the results depend on the processing

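Of 44 values under alternatives, 28 stayed close to the reported ones and 16 moved. A count was judged by its size alone, whichever regions made it up, and a share by the exact interval of the reported share. A close count can therefore consist largely of other regions. A score of 5 or more in each holding list left 34 dHx-only and 78 WT-only regions. Dropping peaks under 5 from every list gave 182 dHx-only regions, of which 34 were reported members, and 215 WT-only regions, of which 78 were. With the High lists left out there were 1647 dHx-only and 1540 WT-only regions, without the Middle lists 1479 and 1401, and without the Negative lists 1117 and 2808. The clustered dHx-only share was 3.21% with a gap of 50 kb, 10.8% with equal list lengths and 0% with crowded bins left out, and the WT-only share was 9.75% and 0% under the last pair of settings. The dHx-only share near starts was 33.0% with peaks under 5 dropped and 13.4% with no WT peak within 1 kb, while the WT-only share was 5.66% and 3.20%. The alternatives for starts, and list length and crowded bins for gene ends, were added after the data were seen. That leaving out lists gives more members, and a score minimum in the holding lists fewer, follows from the rule, and the cause of the other shifts was not tested. In every alternative run, the dHx-only share near starts and near gene ends was above the WT-only share. No paired analysis was possible because each list pools its samples, and for the same reason no replicate could be left out. The forkhead alternatives within regions were not run, for want of a genome sequence. Depth is unknown here, so absence from a list is limited by an unknown number of reads.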

Other observations

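Chromosome X was kept apart from the comparisons. It held 13 further dHx-only and 8 further WT-only regions. The number of union regions on chromosome X is not given here. The 13 and 8 were therefore not compared with the shares on the other chromosomes. The lists had 1208 lines on chromosome X in dHx High, 1702 in Middle and 2545 in Negative, against 1666 in WT High, 5278 in Middle and 1352 in Negative. The embryos were not sexed.

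A dHx-only region on chromosome 15 (chr15:101369382-101369971) covered part of the hairpin of the microRNA gene Mir1941, which RefSeq places at chr15:101369352-101369434. No other microRNA hairpin of the table lay under a member.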
